A study of Mus musculus with 12 samples.

Results

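The V and J segments of the T cell receptor alpha chain (TRA) were described in sorted tumour-infiltrating T cells of mice that carried MCA205, a transplanted mouse fibrosarcoma. Every assembled TRA contig, the sequence put together from the receptor reads of a cell, was taken if its library and cell barcode matched a cell of the deposited metadata. That held for 25600 of 26276 TRA contigs, from 23397 of 30749 cells. These contigs used 87 TRAV and 43 TRAJ segments, 130 of the 164 V and J segments seen in all TRA and TRB contigs. A clonotype was a V segment together with a CDR3 nucleotide sequence within a library, and 4680 were found.

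The anti-ACBP group was 3 C57Bl/6 mice given an antibody that neutralises acyl-CoA binding protein (ACBP, also called DBI) at 2.5 mg/kg. It was given on every second day, beginning 2 days ahead of the chemotherapy and ending 1 day ahead of the immunotherapy. The isotype group was 3 C57Bl/6 mice given IgG2a at the same dose and times. All 6 mice had been injected with 300000 MCA205 cells under the skin. They received oxaliplatin, a platinum drug, at 10 mg/kg on day 8, and anti-PD1, an antibody to an inhibitory receptor of T cells, at 200 µg when 8 more days had passed. Both groups thus carried chemoimmunotherapy, and no tumour without it is among them. Tumours were collected 2 days after anti-PD1, CD4+ and CD8+ T cells were sorted and mixed at equal numbers, and 10000 cells per mouse were loaded for 5′ expression and receptor libraries. The equal mixing set the ratio of CD8 to CD4 cells, so usage is given within each class and not over a whole tumour.

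An alpha chain gene is made in the thymus by joining a V segment to a J segment, and the junction with its added and trimmed bases codes for CDR3, the loop that reaches the peptide on the MHC molecule. The V segments lie upstream of the J segments, and a first join can be replaced by a later one that takes a V further upstream and a J further downstream, until the cell is selected or dies. Both alleles rearrange, so that a T cell can carry a pair of alpha chains. In mice of this strain a block of V segments is present in further copies, which are marked by D or N in the segment name and differ little in sequence.

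The segments lay on chromosome 14, and all 130 matched the RefSeq annotation of GRCm38.p6, the patched form of the mm10 build that the submitters' processing notes name. The TRAV starts ran from 52427967 to 53876016, over 1448 kb, and the TRAJ starts from 54157280 to 54217836, over 61 kb. TRAV1 (chr14:52427967-52428876) lay farthest from the J segments among the V segments named here, and TRAV19 (chr14:53845322-53845827) among the nearest. TRAV8D-2 (chr14:53042428-53042891), TRAV8N-2 (chr14:53345961-53346424), TRAV16N (chr14:53351090-53351621) and TRAV16 (chr14:53743174-53743705) lay between them. TRAJ numbers fall along the locus toward the constant region, with TRAJ57 (chr14:54158507-54158569) near the V segments, TRAJ40 (chr14:54177921-54177981) further on and TRAJ7 (chr14:54211470-54211528) near the far end.

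Cells were put in 3 classes from the authors' clusters 0 to 8, with clusters 0, 3 and 6 as CD8, clusters 1 and 7 as conventional CD4, cluster 2 as regulatory T, and the mixed clusters 4, 5 and 8 split by each cell's own Cd4, Cd8a and Cd8b1 UMIs and by a Foxp3 UMI. Cd8a, a chain of the CD8 co-receptor, had a UMI in 92.4% of CD8, 3.93% of regulatory T and 12.2% of conventional CD4 cells. Cd8b1, its other chain, had one in 93.0%, 12.3% and 16.1% of these classes, so the CD4-type classes were not free of CD8 transcripts. Cluster 1 gave 6971 of the 8902 conventional CD4 cells and was not split by UMIs, so any CD8 cells in it were counted as conventional CD4. Cd4 was detected in 7.40% of CD8, 74.4% of regulatory T and 77.8% of conventional CD4 cells, and Foxp3, the regulatory T factor, in 1.60%, 81.5% and 1.82%. Median depth was 6798, 5983.5 and 5143.5 UMIs per cell in these classes. Trac, the alpha chain constant gene, had a UMI in 76.2% of all cells, and the gamma-delta gene Trdc in 0.276%. Trgv2, a gamma chain V gene, was detected in 13.1% of CD8, 0.383% of regulatory T and 0.865% of conventional CD4 cells. The B cell gene Cd79a, the myeloid gene Csf1r and the fibroblast gene Col1a1 were detected in under 0.1% of cells, at 0.0943%, 0.0748% and 0.0618%. Whether receptor genes entered the authors' clustering was not stated in the sources used here. Each class comparison was therefore repeated in cells whose own Cd4 or Cd8 UMIs matched their class. These were 94.7% of CD8, 69.7% of regulatory T and 75.6% of conventional CD4 cells. Foxp3 was not part of that rule, so the repeat cannot check the split of regulatory T from conventional CD4 cells.

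Each clonotype was given to the class that held most of its cells. This left 1355 CD8, 1272 regulatory T and 1916 conventional CD4 clonotypes and 137 with no class, through a tie or for want of a cell in a class. In all, 597 clonotypes had cells in both the CD8 class and a CD4-type class, and 243 in both the regulatory T and the conventional CD4 class. A TRA contig was found in 73.4 to 79.6% of the cells of a library, with a median of 5 to 7 UMIs per contig. The libraries held 611 to 1067 clonotypes each. Per mouse, a class held 162 to 282 CD8, 130 to 368 regulatory T or 227 to 433 conventional CD4 clonotypes, and these numbers limit the precision of a share.

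The chains below are printed because they show families of CDR3s that recurred with the same V, J and bases in 4 to 6 libraries and differed at few positions. They were picked from the chains shared most widely after their values were seen. Other chains that were found in 5 or 6 libraries are not shown, among them 1 of TRAV14-2 with TRAJ22 in all 6. Their bases are CDR3 nucleotides read from the contigs, 5′ to 3′, from chromosome 14. D and N copies of a V segment were merged. Within each V and J pair the capitals mark the bases that differ between the chains shown.
TRAV16 TRAJ40 chain 1: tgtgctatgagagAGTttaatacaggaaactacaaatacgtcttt
TRAV16 TRAJ40 chain 2: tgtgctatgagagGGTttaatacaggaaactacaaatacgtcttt
TRAV16 TRAJ40 chain 3: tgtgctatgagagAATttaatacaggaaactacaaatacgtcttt
TRAV16 TRAJ40 chain 4: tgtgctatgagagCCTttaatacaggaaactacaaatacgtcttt
TRAV16 TRAJ40 chain 5: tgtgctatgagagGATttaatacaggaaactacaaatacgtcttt
TRAV16 TRAJ40 chain 6: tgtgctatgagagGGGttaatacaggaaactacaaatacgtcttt
TRAV6-7 TRAJ22 chain 1: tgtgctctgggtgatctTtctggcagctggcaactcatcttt
TRAV6-7 TRAJ22 chain 2: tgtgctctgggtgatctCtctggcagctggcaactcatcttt
TRAV6-7 TRAJ22 chain 3: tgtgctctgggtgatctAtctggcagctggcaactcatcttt
TRAV6-7 TRAJ22 chain 4: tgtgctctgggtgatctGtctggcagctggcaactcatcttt
TRAV8-2 TRAJ26 chain 1: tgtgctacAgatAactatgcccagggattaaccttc
TRAV8-2 TRAJ26 chain 2: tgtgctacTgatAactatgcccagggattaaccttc
TRAV8-2 TRAJ26 chain 3: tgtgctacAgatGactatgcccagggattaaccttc
TRAV8-2 TRAJ15 chain 1: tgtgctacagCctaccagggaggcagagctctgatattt
TRAV8-2 TRAJ15 chain 2: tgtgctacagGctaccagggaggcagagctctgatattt

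The 6 chains of TRAV16 with TRAJ40 differed at bases 14 to 16 of the CDR3 and were found in 237 cells, 122 of them with chain 1. They coded for 4 proteins, and 75.0 to 95.5% of the cells of a chain were in the CD8 class. The 4 chains of TRAV6-7 with TRAJ22 carried each of the 4 bases at position 18 and coded for 1 and the same protein. They were found in 417, 168, 47 and 19 cells, 651 in all, of which 92.1 to 97.9% by chain were CD8. The 3 chains of TRAV8-2 with TRAJ26 differed at bases 9 and 13, coded for 2 proteins and were found in 557 cells. The 2 chains of TRAV8-2 with TRAJ15 differed at base 11 and were found in 76 cells.

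The next chains are shown because each was the largest clonotype of its library, and a chain of TRAV13-1 with TRAJ39 is added as one of the 2 conventional CD4 chains found in all 6 libraries. Here the capitals mark the bases between the stretches that at least 90% of the distinct CDR3s with the same V (copies merged) or the same J shared, which holds the junction.
anti-ACBP 1 TRAV13-1 TRAJ32: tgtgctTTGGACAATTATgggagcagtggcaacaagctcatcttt
anti-ACBP 2 TRAV6D-5 TRAJ11: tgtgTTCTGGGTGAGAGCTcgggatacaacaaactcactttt
anti-ACBP 3 TRAV7D-2 TRAJ7: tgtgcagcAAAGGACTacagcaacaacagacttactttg
isotype 1 TRAV6N-7 TRAJ34: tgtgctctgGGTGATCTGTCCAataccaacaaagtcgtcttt
isotype 2 TRAV8D-2 TRAJ26: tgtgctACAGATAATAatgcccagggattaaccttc
isotype 3 TRAV8D-2 TRAJ26: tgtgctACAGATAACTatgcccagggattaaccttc
TRAV13-1 TRAJ39: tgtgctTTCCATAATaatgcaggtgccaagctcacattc

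The largest clonotypes held 503, 99 and 141 cells in the 3 anti-ACBP libraries, against 313, 223 and 212 cells in the 3 isotype libraries. That of anti-ACBP 1 made up 10.8% of its library's cells with a TRA contig, and that of anti-ACBP 2 was conventional CD4. The largest clonotypes of isotype 2 and isotype 3 used the same V and J. The TRAV13-1 with TRAJ39 chain was found in 289 cells, of which 90.1% were conventional CD4. It was held by 7, 5 and 124 cells in anti-ACBP mice, against 2, 150 and 1 cells in isotype mice, so that 1 mouse of each group held nearly all of them.

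Over all libraries the V segments with the most clonotypes were TRAV3N-3 with 164, TRAV6N-7 with 163 and TRAV8D-2 with 149. They were followed by TRAV6D-6 (141), TRAV7D-2 (140), TRAV16N (133), TRAV12N-2 (122), TRAV12D-3 (119), TRAV12-2 (115) and TRAV16 (114). At the other end, TRAV9D-4 was used by 1 clonotype. The J segments were led by TRAJ22 with 270 and TRAJ40 with 266 clonotypes, followed by TRAJ15 (214), TRAJ31 (205), TRAJ37 (199), TRAJ26 (197), TRAJ23 (185), TRAJ7 (170), TRAJ30 (169) and TRAJ34 (149). The least used was TRAJ5, with 23. In all, 42 CDR3 sequences were split by the authors' calls over copies of 1 V segment, so that single copies are less certain than merged groups.

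V usage differed between CD8 and conventional CD4 clonotypes, and the segments higher in CD8 were copies of just TRAV8-2 and TRAV16. TRAV8D-2 made up 7.78, 8.68 and 9.22% of CD8 clonotypes in anti-ACBP mice and 8.90, 9.26 and 9.14% in isotype mice, against 0.88, 1.32, 1.74, 1.15, 1.06 and 0.80% of conventional CD4 clonotypes in the same order. Every CD8 value lay above every conventional CD4 value, at a log2 fold change of 2.89 ± 0.28 (SE; edgeR quasi-likelihood test with mouse as a term, adjusted p = 1.4e-08). TRAV8N-2 was at 5.72 ± 0.82% in CD8 and 1.08 ± 0.58% in conventional CD4 clonotypes (SD, n = 6 mice), a log2 fold change of 2.43 ± 0.34 (edgeR adjusted p = 1.8e-06), with no overlap between the classes. TRAV16 was at 6.24 ± 1.82% in CD8, 3.09% in the lowest mouse, and at 0.93 ± 0.53% in conventional CD4, 1.74% in the highest (log2 fold change 2.70 ± 0.33, edgeR adjusted p = 4.2e-07). TRAV16N was at 6.69 ± 1.41% in CD8 and 1.33 ± 0.77% in conventional CD4 clonotypes (log2 fold change 2.29 ± 0.35, edgeR adjusted p = 4.7e-06). These were 4 calls among 8 segments tested, or 50%, since edgeR's filter on low counts left only 8. The 4 called segments had just 17 to 26 conventional CD4 clonotypes over the 6 mice and passed the filter only through CD8, so 4 of 8 does not measure how many V segments differed.

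With no filter, 12 of 87 V segments were called, or 13.8%. The 5 higher in CD8 were these 4 and TRAV16D-DV11 (log2 fold change 1.37), a further copy of TRAV16. The 7 lower were TRAV14-3 (-3.37), TRAV14N-3 (-2.25), TRAV14D-3-DV8 (-2.11), TRAV4N-4 (-2.05), TRAV4-4-DV10 (-1.99), TRAV14N-2 (-1.87) and TRAV19 (-1.41). All but TRAV19 were copies of TRAV14-2, TRAV14-3 or TRAV4-4. In cells whose own UMIs matched their class the 4 filtered calls held, at 3.90 for TRAV8D-2, 3.5 for TRAV16, 2.98 for TRAV8N-2 and 2.76 for TRAV16N. With TMM scaling and with DESeq2 8 of 8 were called. The median log2 fold change moved by -1.13 with TMM and by -0.93 with DESeq2, which also has another test, and TRAV13-1, TRAV3N-3, TRAV6N-7 and TRAV7D-2 (between -0.56 and 0.00 here) were then lower in CD8. The segments of the unfiltered list and the merged groups that follow were chosen after their values were seen.

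Merging the copies gave each group more clonotypes, and 8 of 17 groups that passed the filter were called, or 47.1%. Groups such as TRAV8-2, TRAV14-3 and TRAV4-4 were let in by the class where they were high, so 47.1% does not measure how many V groups differed. The TRAV8-2 group (here TRAV8D-2 and TRAV8N-2) reached 14.9 ± 1.21% of CD8 clonotypes, from 13.6 to 16.6% by mouse, against 2.25 ± 0.78% of conventional CD4 clonotypes, from 1.33 to 3.5%. The TRAV16 group was at 15.7, 13.6 and 13.7% of CD8 clonotypes in anti-ACBP mice and 14.3, 10.7 and 13.3% in isotype mice, and at 3.07 ± 0.69% of conventional CD4 clonotypes. The log2 fold changes were 2.74 ± 0.22 and 2.13 ± 0.21, so that both groups stood well above their conventional CD4 level in each of the 6 mice. The other 6 calls were lower in CD8. TRAV14-3 was at 0.94 ± 0.52% of CD8 and 5.58 ± 0.74% of conventional CD4 clonotypes (log2 fold change -2.58 ± 0.35), and TRAV4-4 at 1.23 ± 0.77% and 5.25 ± 1.03% (-2.05 ± 0.33). Neither overlapped between the classes. TRAV14-2 (-1.38), TRAV5-4 (-1.05), TRAV14-1 (-0.91) and TRAV7-4 (-0.79) were lower as well.

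**Figure D1:**
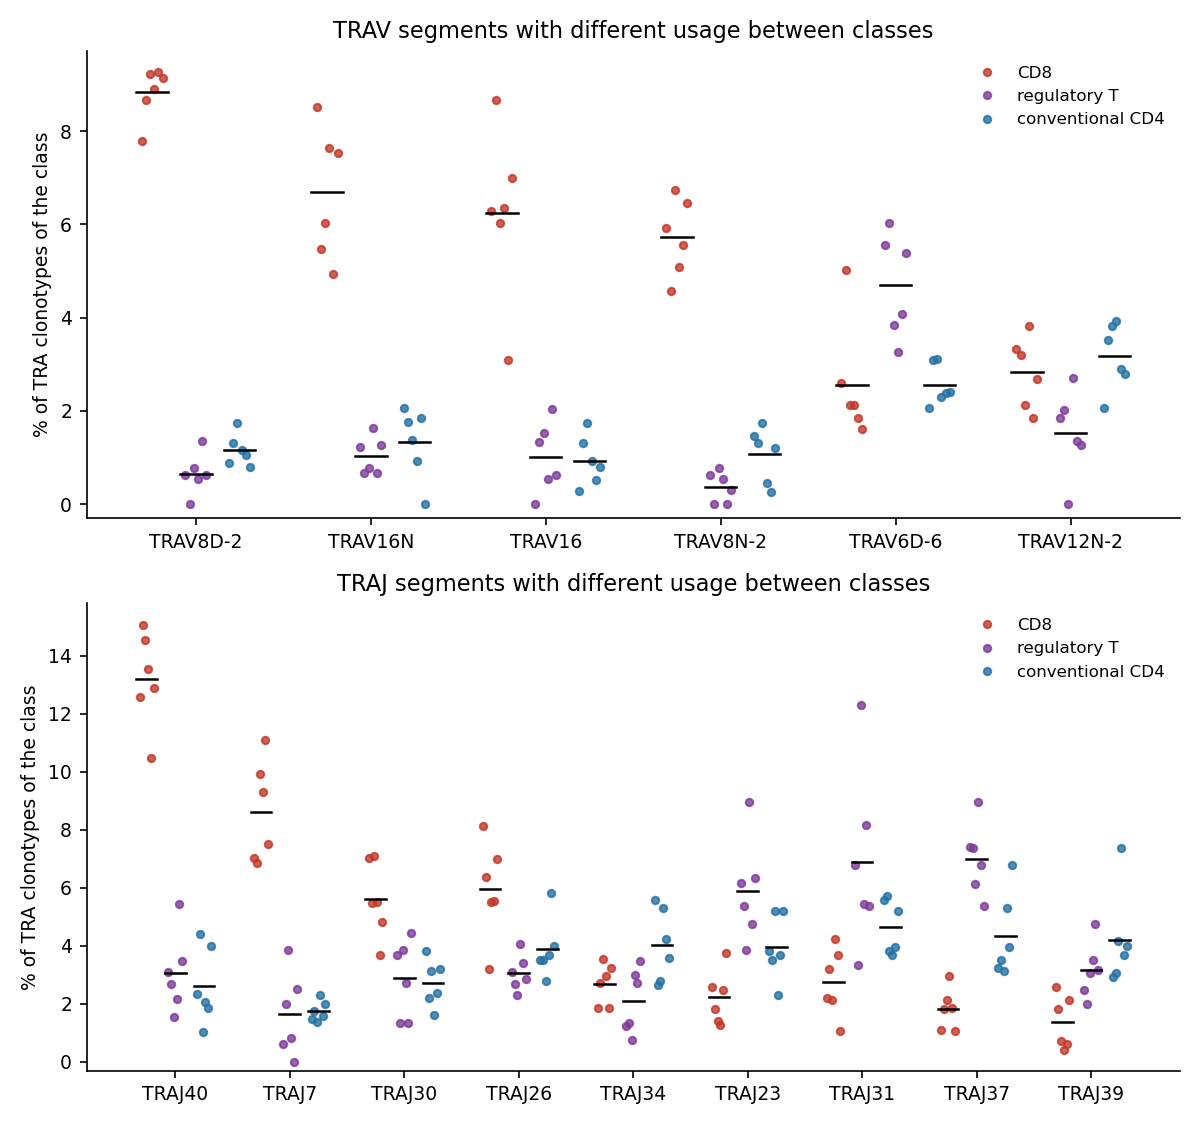
Share of clonotypes (%) that used each of 6 TRAV and 9 TRAJ segments in the CD8, regulatory T and conventional CD4 class. Points are the 6 mice and the black bar is their mean; the CD8 points of TRAV8D-2, TRAJ40 and TRAJ7 lie above all points of the CD4-type classes, and those of TRAJ39 and TRAJ37 mostly below.

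Among J segments, TRAJ40 and TRAJ7 stood highest in CD8 over conventional CD4. TRAJ40 was used by 12.6, 15.1 and 14.5% of CD8 clonotypes in anti-ACBP mice and 13.6, 10.5 and 12.9% in isotype mice, against 2.35, 4.41, 1.04, 2.08, 1.85 and 4.0% of conventional CD4 clonotypes in the same order. TRAJ7 was used by 7.04, 6.85 and 9.93% (anti-ACBP) and 9.32, 11.1 and 7.53% (isotype) of CD8 clonotypes, against 1.75 ± 0.35% of conventional CD4 clonotypes, at most 2.31%. The classes did not overlap for either segment, with log2 fold changes of 2.38 ± 0.19 for TRAJ40 (edgeR adjusted p = 4.9e-17) and 2.28 ± 0.23 for TRAJ7 (3.1e-13). TRAJ30 was higher by less, at 5.61 ± 1.30% of CD8 and 2.72 ± 0.80% of conventional CD4 clonotypes, with ranges of 3.70 to 7.09% and 1.62 to 3.82% that overlapped slightly (log2 fold change 1.06 ± 0.24, edgeR adjusted p = 1.0e-04). TRAJ26 was at 5.96 ± 1.68% and 3.89 ± 1.03% (0.62 ± 0.21, edgeR adjusted p = 0.0117), again with overlap.

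TRAJ39 was lower in CD8, at 2.59, 1.83 and 0.71% (anti-ACBP) and 0.42, 0.62 and 2.15% (isotype), against 2.94, 3.08 and 4.17% (anti-ACBP) and 7.39, 3.70 and 4.0% (isotype) of conventional CD4 clonotypes. The classes did not overlap and the log2 fold change was -1.59 ± 0.30 (edgeR adjusted p = 7.3e-06). TRAJ37 was at 1.83 ± 0.70% of CD8 and 4.33 ± 1.45% of conventional CD4 clonotypes, with 2.97% as the highest CD8 and 3.12% as the lowest conventional CD4 value (-1.17 ± 0.28, edgeR adjusted p = 3.2e-04). TRAJ23 (2.22 ± 0.93% of CD8 and 3.96 ± 1.10% of conventional CD4; log2 fold change -0.86 ± 0.28), TRAJ31 (2.76 ± 1.17% and 4.67 ± 0.94%; -0.73 ± 0.25) and TRAJ34 (2.70 ± 0.71% and 4.03 ± 1.25%; -0.59 ± 0.26) were lower too and overlapped between the classes. Their edgeR adjusted p was 0.00928, 0.0117 and 0.0439. These 9 calls were among 12 segments that passed the filter, or 75%. TRAJ7 had 34 conventional CD4 clonotypes over the 6 mice, and TRAJ39, TRAJ37 and TRAJ23 had 19, 25 and 29 CD8 clonotypes, so such segments were let in by the class where they were high and 75% does not measure how many J segments differed. With no filter 18 of 43 J segments passed, or 41.9%, 4 higher and 14 lower. Among the 14 were TRAJ57, at 0.64 ± 0.46% of CD8 and 3.01 ± 0.46% of conventional CD4 clonotypes (-2.13), and TRAJ58 (-2.40), both at the end of the J cluster near the V segments, while TRAJ34 was not called (adjusted p = 0.0885). DESeq2 called 5 of the 12, TRAJ40, TRAJ7, TRAJ30, TRAJ37 and TRAJ39. TRAJ34 lost its call without anti-ACBP 1, isotype 1 or isotype 2, TRAJ31 without anti-ACBP 1 or isotype 3, and TRAJ26 without anti-ACBP 1. Without anti-ACBP 3, TRAJ23 and TRAJ39 did not pass the filter.

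The mean TRAJ number put these J differences on the map of the locus. It was 27.3 ± 0.91 over CD8, 31.3 ± 0.73 over regulatory T and 30.3 ± 1.02 over conventional CD4 clonotypes (SD, n = 6 mice). CD8 lay below conventional CD4 in 6 of 6 mice, by 3.06 TRAJ numbers on average, with differences of -5.99 to -1.76. The two-sided exact sign-flip test gave p = 0.03125, the smallest that 6 mice allow, and leaving out any 1 mouse left a smallest possible p of 0.0625. CD8 chains thus used J segments further downstream on average, although TRAJ40, their commonest J segment, is not a downstream one.

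The positions of the V and the J segment of a chain went together along the locus. Over 4543 clonotypes Spearman's rho between the start of the V and of the J segment was -0.41, and -0.46 to -0.37 within a mouse, given as a description since clonotypes share V and J segments. With the V region cut in 3 equal stretches, the median TRAJ number was 27 for V segments far from the J cluster (523 clonotypes), 23 for the middle (2100) and 37 for the near stretch (1920). TRAJ40 or a higher number was used by 17.4, 16.8 and 43.0% of them. The far stretch thus did not go further downstream than the middle one. By segment, chosen after the values were seen, the mean TRAJ number was 18.6 for TRAV9N-3, 19.5 for TRAV12N-2, 19.7 for TRAV8D-2 and 21.8 for TRAV8N-2. It was 44.7 for TRAV14-3, 49.9 for TRAV21-DV12 and 50.5 for TRAV19, whose median J was TRAJ56. TRAV16 stood at 43.4 ± 6.6 (SD over clonotypes), and TRAV16N and TRAV16D-DV11 at 33.8 and 32.2, all 3 with TRAJ40 as their median.

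**Figure D2:**
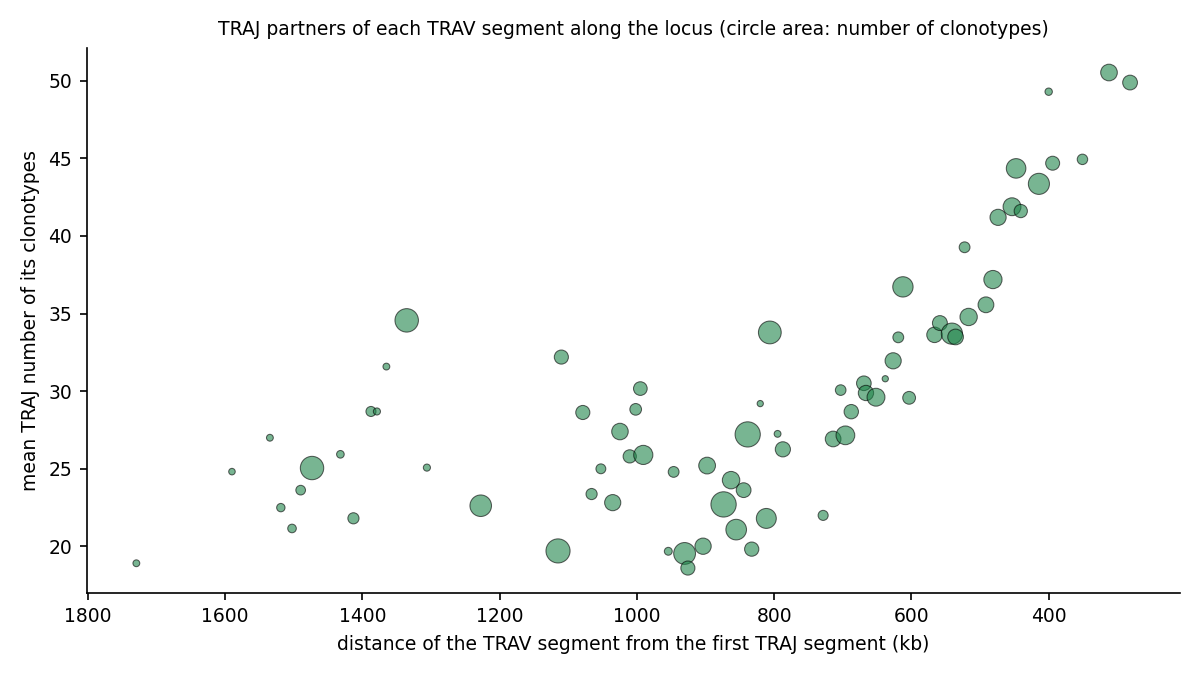
Mean TRAJ number of each TRAV segment's clonotypes (y axis) against the distance of the V segment from the first TRAJ segment in kb (x axis, farthest at the left), with circle area proportional to the number of clonotypes. Most V segments near the J cluster sit above a mean TRAJ number of 30, with TRAV19 at 50.5, and TRAV8D-2 in the middle of the V region at 19.7.

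Of 1205 V and J pairs seen with copies merged, TRAV16 with TRAJ40 was used by the most clonotypes, 125, of which 119 were CD8 and 5 conventional CD4. It made up 9.36, 11.3 and 8.49% of CD8 clonotypes in anti-ACBP mice and 9.52, 6.29 and 8.29% in isotype mice, 9.0% over all. The product of the V and J shares would have given 14.3 clonotypes in all. The next CD8 pairs were TRAV8-2 with TRAJ15 (67 clonotypes, 63 CD8, 11.9 from the product of shares), TRAV8-2 with TRAJ26 (56, 52 CD8, 11), TRAV8-2 with TRAJ7 (30, 29 CD8, 9.49) and TRAV6-7 with TRAJ22 (30, 26 CD8, 15.3). The commonest CDR3 length held 118 of 125 TRAV16 with TRAJ40 chains (45 bases), 63 of 67 TRAV8-2 with TRAJ15 chains (39) and 27 of 30 TRAV6-7 with TRAJ22 chains (42), but 33 of 56 TRAV8-2 with TRAJ26 (36) and 15 of 30 TRAV8-2 with TRAJ7 chains (39). Conventional CD4 clonotypes held most of TRAV6-7 with TRAJ34 (22 of 28), TRAV19 with TRAJ57 (19 of 27), TRAV13-1 with TRAJ39 (23 of 27) and TRAV14-2 with TRAJ22 (19 of 26). The V segment therefore did not fix the class, since by clonotypes TRAV6-7 joined to TRAJ22 was mostly CD8 and joined to TRAJ34 mostly conventional CD4. This did not hold by cells, because the largest clonotype of isotype 1, a CD8 one, held 313 of the 483 cells of TRAV6-7 with TRAJ34. Pairs and their TRBV partners were named after their values were seen and carry no test.

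The beta chains found with these pairs were uneven as well. Of 199 combinations of an alpha and a beta chain with TRAV16 and TRAJ40 in CD8 cells, 55 used TRBV14, or 27.6%, against 7.23% of all 1521 CD8 combinations. TRAV8-2 with TRAJ7 went with TRBV26 in 73.3% of combinations (5.79% of all CD8), and TRAV6-7 with TRAJ22 with TRBV2 in 52.0% (5.79%). TRAV8-2 with TRAJ26 went with TRBV12-2+TRBV13-2, as the file spells it, in 54.1% (10.3%). Among conventional CD4 cells TRAV6-7 with TRAJ34 went with TRBV20 in 22 of 23 combinations, 95.7% against 3.51% of all in the class, and TRAV14-2 with TRAJ22 with TRBV3 in 37 of 39, 94.9% against 18.9%. TRAV13-1 with TRAJ39 used TRBV13-1 in 55.2% (6.25%). TRAV19 with TRAJ57 went with TRBV3 in 63.2% (18.9%). TRAV8-2 with TRAJ15 was the most even, since its commonest partner, TRBV13-3, had 18.3% of 82 CD8 combinations (6.77%).

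Between regulatory T and conventional CD4 clonotypes 2 V segments and no J segment passed the test. TRAV6D-6 was at 5.56, 6.04 and 3.85% of regulatory T clonotypes in anti-ACBP mice and 3.26, 4.08 and 5.38% in isotype mice, against 2.06, 3.08, 3.12, 2.31, 2.38 and 2.40% of conventional CD4 clonotypes in the same order. It was higher in regulatory T cells in each mouse, and every regulatory T value lay above every conventional CD4 value (log2 fold change 0.85 ± 0.22, edgeR adjusted p = 0.0245). TRAV12N-2 was lower, at 1.53 ± 0.92% of regulatory T and 3.17 ± 0.72% of conventional CD4 clonotypes (-0.90 ± 0.31, edgeR adjusted p = 0.0397), with overlap. These 2 were called of 9 tested, or 22.2%. Each was let past the filter by the class where it was high, TRAV6D-6 by regulatory T and TRAV12N-2 by conventional CD4. The 22.2% thus does not measure how many V segments differed. With no filter 0 of 87 were (0%; 9 at an unadjusted p under 0.05), and the call of TRAV6D-6 was lost without anti-ACBP 1 or 2. It was also lost with TMM scaling and with DESeq2, which called TRAV12N-2 and TRAV6N-7 lower. TRAV12N-2 was called in none of the 6 fits that left out 1 mouse. It missed the threshold without anti-ACBP 1, anti-ACBP 2 or isotype 2, and did not pass the filter without anti-ACBP 3, isotype 1 or isotype 3. With copies merged, TRAV6-6 was higher (6.29 ± 0.90% and 3.60 ± 0.46%; 0.80 ± 0.17, edgeR adjusted p = 0.0135) and TRAV14-3 lower (2.93 ± 1.21% and 5.58 ± 0.74%; -0.80 ± 0.22, edgeR adjusted p = 0.0137), 2 of 16 groups or 12.5%. No J segment of 16 passed edgeR's quasi-likelihood test (0%; 4 at an unadjusted p under 0.05; DESeq2 called 0). The nearest were TRAJ23 (5.91 ± 1.76% and 3.96 ± 1.10%; log2 fold change 0.68), TRAJ37 (7.02 ± 1.23% and 4.33 ± 1.45%; 0.67) and TRAJ34 (2.09 ± 1.11% and 4.03 ± 1.25%; -0.86), each at an adjusted p of 0.0789.

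The segments that marked CD8 were rare in regulatory T clonotypes too. TRAV8D-2 averaged 0.65%, TRAV8N-2 0.37%, TRAV16 1.02% and TRAV16N 1.04% of regulatory T clonotypes. All 3 classes drew on nearly all of the 87 V and 43 J segments seen in these contigs, out of 114 V and 51 J segments that RefSeq lists on chromosome 14, with 85 V segments in CD8, 85 in regulatory T and 86 in conventional CD4 clonotypes, and 43 J segments in each.

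In 2203 cells, 6.24 to 12.7% of a library's cells with TRA, 2 TRA contigs were reported, and no cell had more. Their J segments lay near each other. Over 643 distinct pairs of chains Spearman's rho between the pair's TRAJ numbers was 0.571, and 0.50 to 0.64 within a mouse, the median difference was 7 TRAJ numbers, and 67.2% of pairs were within 10. The V segments of a pair showed a rho of 0.18 between their starts. These values describe pairs that share cells, libraries and the commoner segments. The stronger contig had a median of 8 and the weaker of 4 UMIs. Cells with 2 TRA contigs had a median of 6662 UMIs in all, against 6215 in cells with 1. The part of depth and of doublets in these pairs was not tested. The largest pair was held by 115 cells of isotype 2 and joined TRAV8D-2 with TRAJ26 to TRAV16D-DV11 with TRAJ17, and 104 cells carried 2 chains of the same V or a copy of it, 71 of them in isotype 2.

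**Figure D3:**
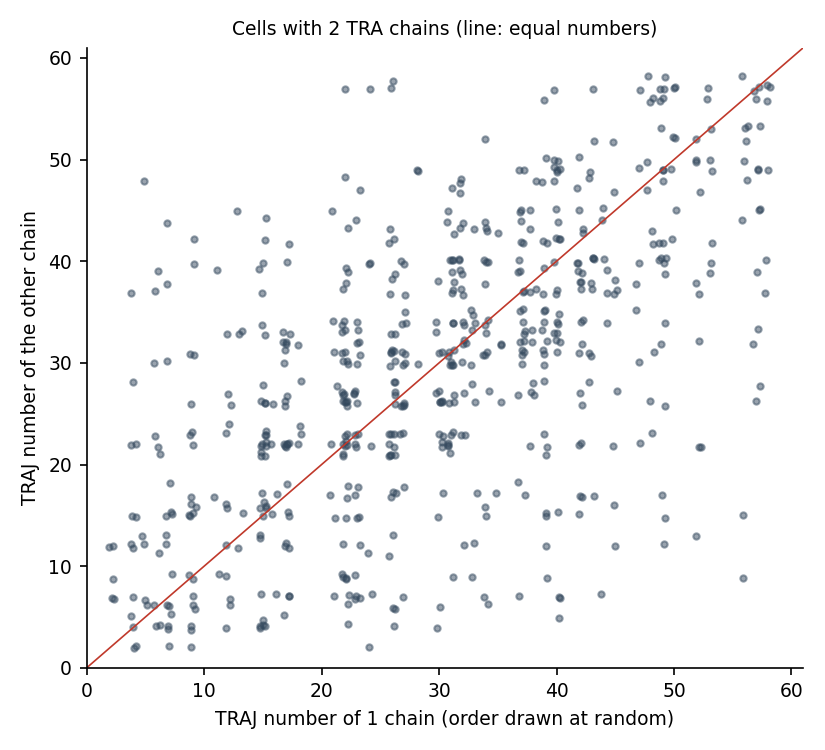
TRAJ numbers of the chains of cells with 2 TRA contigs, 1 point per distinct pair of chains (643 pairs, 6 mice, points moved slightly so that they do not cover each other), with the line of equal numbers. The points lie along the line, with 67.2% of pairs within 10 TRAJ numbers and a Spearman's rho of 0.571.

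Some chains recurred between mice with the same V, J and CDR3 bases. Of 4295 distinct chains 212, or 4.94%, were found in at least 2 libraries and 10 in all 6, 8 of them CD8 and 2 conventional CD4 by most of their cells. The share of a mouse's clonotypes that were found in another mouse was 20.9 ± 1.81% in CD8, 6.26 ± 1.45% in regulatory T and 9.83 ± 2.19% in conventional CD4 clonotypes. No entry of 25600 had its chain and barcode in another library, although 1078 cells had a barcode that was also in another library. Among 198 shared chains with a beta chain in more than 1 library, 20 had the same beta chain in 2 libraries, and 13 of those had a single cell in 1 of them. For chain 1 of TRAV16 with TRAJ40, 61 distinct beta chains were found over the 6 libraries.

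Different bases often spelled 1 protein. Of 3976 translated chains 209, or 5.26%, had at least 2 nucleotide spellings, and the most was 9, for a chain of TRAV8-2 with TRAJ15. Those spellings were counted over all libraries. The share of clonotypes whose protein had a further spelling within the same library was 16 ± 2.47% in CD8, 2.19 ± 0.987% in regulatory T and 4.55 ± 1.86% in conventional CD4 clonotypes (SD, n = 6 mice). CD8 ran from 11.1 to 17.8% and lay in each mouse above the highest conventional CD4 value, 7.64%. Within a library 3 of 235 pairs of spellings, or 1.28%, had a beta chain in common. These differences between classes were described and not tested.

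Counting cells in place of clonotypes changed the order of the segments, because clone sizes were uneven. A CD8 clonotype held 10.2 cells on average, a regulatory T clonotype 2.96 and a conventional CD4 clonotype 3.96, while 2487 of 4543 clonotypes, or 54.7%, had 1 cell. TRAJ7 was used by 8.63% of CD8 clonotypes but by 8.70, 8.51 and 19.8% of CD8 cells in anti-ACBP mice and 36.6, 24.5 and 11.3% in isotype mice. TRAJ40 went the other way, with 13.2% of CD8 clonotypes and 2.60, 10.9 and 5.61% of cells in anti-ACBP, 3.69, 2.65 and 5.35% in isotype mice. Over all classes TRAJ7 had 170 clonotypes and 2922 cells, 17.2 cells per clonotype, and TRAJ40 266 clonotypes and 909 cells. The SD over the 6 mice was 11.1 percentage points for TRAJ7 by cells and 1.75 by clonotypes. With cells counted, 13 of 69 V segments (18.8%) and 15 of 42 J segments (35.7%) were called between CD8 and conventional CD4. These held 2 of the 4 V and 5 of the 9 J segments called by clonotypes. TRAJ40 (log2 fold change 1.19, edgeR adjusted p = 0.111), TRAJ30 (0.94, 0.183), TRAV16 (1.66, 0.0745) and TRAV16N (1.77, 0.061) did not pass by cells, nor did TRAJ31 and TRAJ34.

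**Figure D4:**
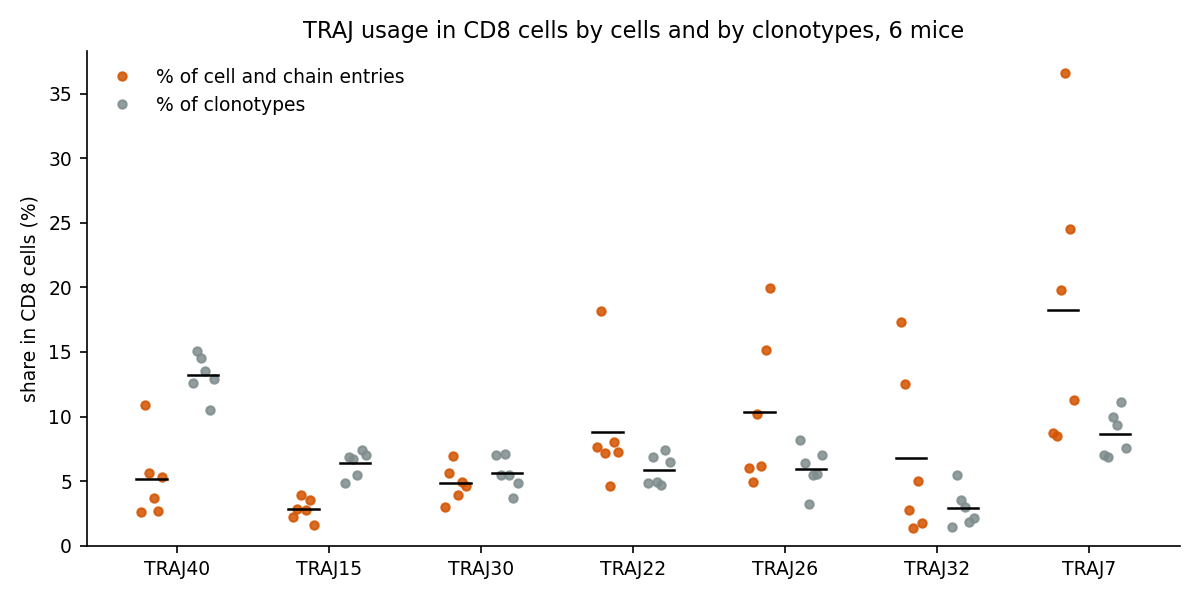
Share of CD8 cells and of CD8 clonotypes (%) that used each of 7 TRAJ segments, 1 point per mouse with the mean as a black bar (6 mice). TRAJ40 lies higher by clonotypes (mean 13.2%) than by cells, and TRAJ7 reaches 36.6% of cells in isotype 1 with 8.63% of clonotypes on average.

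No segment passed the test between anti-ACBP and isotype mice in any class when clonotypes were counted. In CD8 clonotypes 4 V and 6 J segments were tested, and in conventional CD4 clonotypes 5 and 9. In regulatory T clonotypes no V segment passed the filter and 2 J segments were tested. In each of these 5 sets 0 passed edgeR's quasi-likelihood test (0%). TRAJ37 in conventional CD4 clonotypes alone had an unadjusted p under 0.05, 1 in all, and DESeq2 called 0. With no filter 0 of 85 V and 43 J in CD8, 86 and 43 in conventional CD4 and 85 and 43 in regulatory T clonotypes passed, with 2, 1, 5, 2, 5 and 1 at an unadjusted p under 0.05. These counts do not show that usage was the same, since the standard errors below were 0.13 to 0.44 on the log2 scale. They were worked out from the fold change and the test's F value, and some are too small. For TRAV8D-2 in CD8, -0.08 ± 0.13 went with an unadjusted edgeR p of 0.752, which calls for a larger standard error. Precision is therefore lower than such values show.

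The V segments highest in CD8 over conventional CD4 overlapped between the treatment groups. TRAV8D-2 was used by 7.78, 8.68 and 9.22% of CD8 clonotypes in anti-ACBP mice, against 8.90, 9.26 and 9.14% in isotype mice, which overlapped (log2 fold change -0.08 ± 0.13, SE). TRAV8N-2 was at 5.93, 4.57 and 6.74% against 5.08, 5.56 and 6.45% (0.05 ± 0.20), and TRAV16 at 6.30, 8.68 and 6.03% against 6.36, 3.09 and 6.99% (0.28 ± 0.27), with anti-ACBP mice first in both. Among CD8 J segments TRAJ30 was at 7.04, 5.48 and 7.09% in anti-ACBP and 5.51, 3.70 and 4.84% in isotype mice (0.46 ± 0.28), with a small overlap. TRAJ40 gave 0.16 ± 0.18 and TRAJ7 -0.20 ± 0.22.

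In conventional CD4 clonotypes TRAJ37 was at 3.24, 3.52 and 3.12% in anti-ACBP mice, against 5.31, 3.97 and 6.80% in isotype mice. The groups did not overlap, and the log2 fold change of -0.66 ± 0.30 had an unadjusted edgeR p of 0.0434 and an adjusted p of 0.232. TRAJ39 (-0.63 ± 0.31, edgeR adjusted p = 0.232) and TRAJ26 (-0.46 ± 0.31, 0.507) came next. TRAV4N-4 was at 4.41, 3.52 and 3.47% against 1.85, 3.17 and 2.80%, anti-ACBP first, again without overlap (0.58 ± 0.41), followed by TRAV3N-3 (0.34 ± 0.39) and TRAV13-1 (0.17 ± 0.43). With 3 mice against 3, full separation arises by chance alone at a rate of 0.1. The share of all segments without overlap was not counted, so the separation of TRAJ37 and TRAV4N-4 is no result by itself. In regulatory T clonotypes the 2 tested J segments were TRAJ31 (0.28 ± 0.44) and TRAJ37 (-0.03 ± 0.36). The treatment difference did not differ past the threshold between CD8 and conventional CD4 or between regulatory T and conventional CD4 for any of 8 and 9 V or 12 and 16 J segments tested as an interaction (edgeR quasi-likelihood test, 0 called, 0 at an unadjusted p under 0.05).

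**Figure D5:**
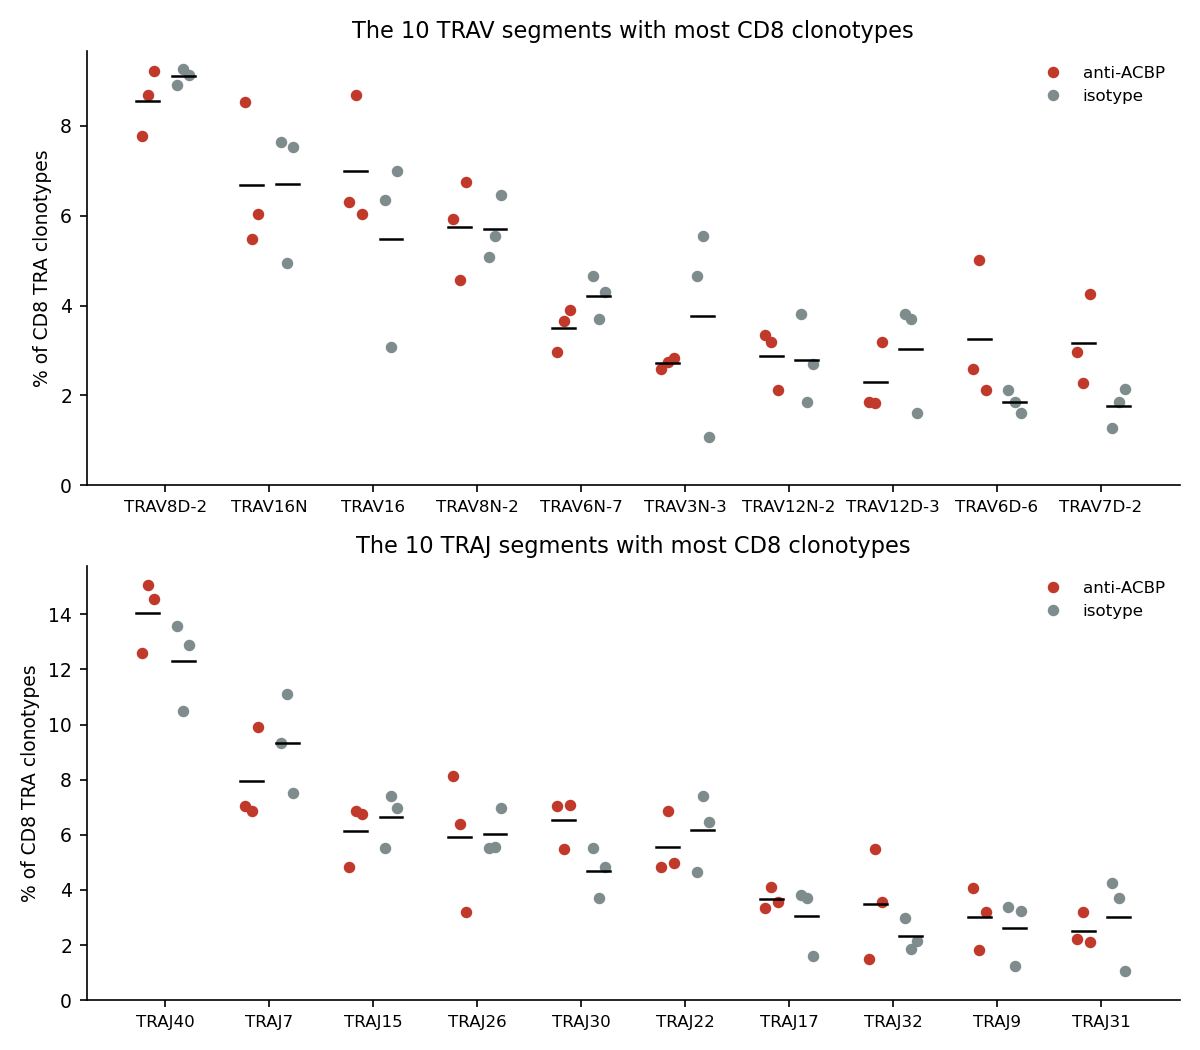
Share of CD8 clonotypes (%) that used each of the 10 TRAV and 10 TRAJ segments with the most clonotypes, anti-ACBP at the left and isotype at the right of each pair. Points are mice (3 per group) and the black bar is the mean; TRAV8D-2 and TRAJ40 overlap between the groups, and no tested CD8 segment passed the test.

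Counting cells gave 1 call in each of a pair of comparisons. TRAV13-1 was used by 27.7, 14.6 and 1.68% of CD8 cells in anti-ACBP mice, against 0.75, 0.11 and 0.17% in isotype mice (log2 fold change 4.72 ± 1.37, edgeR adjusted p = 0.0368, 1 of 30 V segments or 3.33%). By clonotypes TRAV13-1 was at 2.96, 4.57 and 1.06% against 0.42, 1.23 and 1.61%, anti-ACBP first, and the groups overlapped. The largest clonotype of anti-ACBP 1, printed above with its TRAV13-1 and TRAJ32 junction, alone held 503 cells. TRAJ11 was used by 2.92, 15.8 and 0.72% of conventional CD4 cells in anti-ACBP mice, against 0, 0 and 0.14% in isotype mice (6.07, edgeR adjusted p = 8.0e-07, 1 of 35 J segments or 2.86%), from 10 clonotypes in all, among them the largest of anti-ACBP 2. Other comparisons of cells between the groups gave 0 calls (0%) of 28 J in CD8, 41 V in conventional CD4, and 19 V and 22 J in regulatory T cells. Cells of 1 clone share their chain and are not independent, and no segment was called by clonotypes. TRAV13-1 and TRAJ11 were also let past the filter by the anti-ACBP mice, where they were high. Their p-values by cells therefore carry no support for a treatment difference.

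Measures of the whole alpha repertoire did not pass an exact test between the groups either. With 3 mice against 3 the two-sided exact permutation test cannot go below p = 0.1, and all adjusted p over the 12 tests were 0.6 or more. The share of regulatory T cells with 2 TRA contigs was 20.7, 15.5 and 15.4% in anti-ACBP mice, against 13.3, 5.31 and 9.90% in isotype mice, without overlap (exact permutation p = 0.1, adjusted 0.6). In CD8 cells it was 3.19, 9.92 and 9.49% against 5.58, 14 and 15.4% (exact p = 0.3), anti-ACBP first, with the groups overlapping and the mean lower with anti-ACBP. In conventional CD4 cells it was 8.21 ± 2.20% against 9.17 ± 1.25% (exact p = 0.6). Mean CDR3 length of conventional CD4 clonotypes was 40.9 ± 0.0451 bases in anti-ACBP and 40.7 ± 0.0746 bases in isotype mice, a difference of 0.15 bases without overlap (exact p = 0.1, adjusted 0.6). The mean TRAJ number was 27.7 and 26.9 in CD8, 31.0 and 31.6 in regulatory T and 29.8 and 30.9 in conventional CD4 clonotypes, anti-ACBP first. The effective number of TRAV segments over CD8 cells, the inverse Simpson index, was 14 ± 4.10 in anti-ACBP and 12.8 ± 4.73 in isotype mice (exact p = 1.0).

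Across the authors' clusters TRAV8D-2 and TRAJ7 stood higher in each CD8 cluster than in clusters 1, 2 and 7, given here without a test. TRAV8D-2 averaged 9.37, 7.11 and 8.17% of clonotypes in the CD8 clusters 0, 3 and 6, and 1.24% in the regulatory T cluster 2. It averaged 2.82 and 2.54% in clusters 1 and 7, which were taken whole as conventional CD4 and may hold CD8 cells. The mixed clusters 4, 5 and 8 stood at 6.55, 6.33 and 2.17%. TRAJ7 averaged 7.79, 11.1 and 11.7% in clusters 0, 3 and 6, 2.12% in cluster 2, and 2.98 and 3.03% in clusters 1 and 7. TRAJ37 was highest in cluster 2, at 6.65%, and lay between 1.64 and 4.05% in the others. The share of cells with 2 TRA contigs was highest in cluster 2 too, at 12.7% over the pooled libraries, and lowest in cluster 8, at 6.83%, where a library had as few as 6 cells with TRA. That order did not hold by mouse, since the regulatory T class lay below the CD8 class in isotype 2 (5.31% and 14%) and isotype 3 (9.90% and 15.4%). The mean TRAJ number was lowest in cluster 6, at 26.0, and highest in cluster 8, at 31.6.

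The invariant chains of mouse natural killer T cells (TRAV11 with TRAJ18) and mucosal-associated invariant T cells (TRAV1 with TRAJ33) were nearly absent from these sorted CD4+ and CD8+ cells. T cells with neither co-receptor were not sorted for, so the shares below do not describe the whole tumour. TRAV11 with TRAJ18 was found in 3 of 23397 cells, 0.0128% (exact 95% interval 0.00264 to 0.0375%, counting error only), in anti-ACBP 1, isotype 1 and isotype 3. The chains are shown because they are the known invariant chain, in spellings that differ at the base in capitals.
invariant 1: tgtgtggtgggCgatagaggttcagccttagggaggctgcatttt
invariant 2: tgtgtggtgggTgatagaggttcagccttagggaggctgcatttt
TRAV1 with TRAJ33 was found in 0 of 23397 cells, which allows a share of up to 0.0128% by the limit of 3 counts and 0.0158% by the exact 95% interval. The 4 segments themselves were in use, with 37 cells for TRAV11, 213 for TRAJ18, 65 for TRAV1 and 647 for TRAJ33 with any partner. Zbtb16, the transcription factor of both cell types, had a UMI in 0.137% of cells.

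The expression libraries of the same cells gave a second reading of the V call. Of 21194 cells with 1 TRA contig, 78.1% had a UMI of a Trav gene, and the Trav gene with most UMIs was the called V segment in 78.8% of these cells and the segment or a copy in 82.0%. A Trav16 UMI was found in 98% of cells with a TRAV16 contig and 0.373% of other cells, a Trav8d-2 UMI in 99.4% and 0.626%, and a Trav13-1 UMI in 98.4% and 1.73%. Other common segments had almost no such reading. A UMI of the own gene was found in 0.282% of TRAV3N-3, 2.51% of TRAV6N-7 and 1.06% of TRAV7D-2 cells, and in 0% of TRAV6D-6, TRAV12N-2 and TRAV12D-3 cells. A UMI of any copy was found in 2.26% of TRAV3N-3 cells, against 3.38% of other cells, in 25.2% of TRAV6N-7, 1.07% of TRAV6D-6, 1.52% of TRAV12N-2 and 31.5% of TRAV12D-3 cells, so for these the V call had little or no second reading. Among 72 V segments with at least 30 cells, 60 had a higher share in their own cells than in others.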

How the data were processed

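The receptor contigs and the 5′ expression of single sorted cells were used, from 3 anti-ACBP and 3 isotype mice. The deposited files hold UMI counts per gene and cell and, for each contig, the authors' V and J calls, CDR3 bases and UMI count. The submitters' processing notes name Seurat, Cell Ranger 7.0.0 and mm10, with no role for any of them. How clusters and V calls were made was not stated in the sources used here. Contigs were joined to cells by library and barcode, and 676 TRA contigs (2.57%) outside the metadata were left out. No filter on cells or doublets was added.

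Clonotypes per segment, class and library were tested with edgeR 4.0.16 (quasi-likelihood test, R 4.3.3, limma 3.58.1). Library size was all clonotypes of the class, without further scaling; edgeR's default filter was used, with Benjamini-Hochberg adjustment at 0.05. Class comparisons had the mouse as a term. Because so few segments passed the filter, a common dispersion was used in every fit in place of a trend. DESeq2 1.42.0 was an alternative. Single values were compared by exact permutation (scipy 1.17.1). Python 3.11.15, pandas 2.3.3, numpy 2.4.6 and matplotlib 3.10.9 served for the rest. Only the CD8 over conventional CD4 fit was tried on simulated counts, without the filter and with no spread between mice. The treatment fits were not simulated.

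Counting intervals and limits cover counting error only, and p-values of the exact tests measure the spread between these 6 mice. Those of edgeR join that spread, with a dispersion shared by all segments of a fit, to counting error. They do not measure the spread of each segment between mice alone. Members and lists were chosen with earlier results of these data known. Named were the 10 TRAV and 10 TRAJ segments with most clonotypes, those past the threshold in each comparison, the 3 with the smallest p where none passed, and the segments of invariant chains. Other alternatives were counting cells, merging copies, no filter, TMM scaling, other class rules, contigs of at least 3 UMIs, leaving out cells with 2 TRA contigs, the replicate block, and leaving out each mouse.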

Additional observations from a re-analysis of the deposited data

Results flagged for a closer look

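Of 24 quantities checked for 1 mouse far from the other 5, 5 had one, and chance alone gives about 1 in 20 such groups. In anti-ACBP 3 the share of TRAJ23 in CD8 minus that in conventional CD4 clonotypes was -3.79 percentage points, against -1.70 to -1.04 in the other mice. In isotype 3 the same difference for TRAJ37 was -5.72 points, against -2.35 to -0.997 in the others. TRAV12N-2 in regulatory T minus conventional CD4 clonotypes was -3.82 points in anti-ACBP 3, where no regulatory T clonotype used it, against -1.55 to -0.207. The share of CD8 clonotypes whose protein had a further nucleotide spelling in the same library was 11.1% in isotype 2, against 16 to 17.8%. The share of CD8 clonotypes found in another mouse was 17.4% in anti-ACBP 2, against 20.7 to 22.5%.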

How the results depend on the processing

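For CD8 over conventional CD4, the count of called V segments (4) was 12 with no filter, 8 with TMM, 8 with DESeq2, 13 with cells counted and 8 with copies merged, and 4 to 5 with 1 mouse left out. The count of J segments (9) was 18 with no filter, 5 with DESeq2, 15 with cells counted, 5 with clonotypes counted in every class, and 6 to 9 with 1 mouse left out. For regulatory T over conventional CD4, the V count (2) was 0 with no filter or cells counted and 1 with TMM (TRAV12N-2), and 1 (TRAV6D-6) with own UMIs matching, in every class and without cells of 2 TRA contigs, and 0 to 2 with 1 mouse left out. The J count (0) was 2 with own UMIs matching, 4 in every class, 3 without cells of 2 TRA contigs, and 0 to 2 with 1 mouse left out. Between treatments 1 V segment in CD8 and 1 J segment in conventional CD4 passed with cells counted. The difference in mean TRAJ number was -3.32 to -2.47 with 1 mouse left out, where the exact sign-flip test over 5 mice cannot go below p = 0.0625. Replicate numbers did not pair the mice (correlations of deviations -0.48 to 0.22), and with the replicate block 0 segments passed between treatments. The class comparisons were also fitted with treatment in place of the mouse term, which drops the pairing within a mouse. The regulatory T over conventional CD4 counts were then 1 V and 2 J, and the CD8 over conventional CD4 counts 4 V and 6 J. Log2 fold changes between treatments changed sign for TRAV8D-2 (0.11 in every class), TRAV8N-2 (-1.05 with cells, -0.052 without cells of 2 TRA contigs, -0.087 to 0.16 with 1 mouse left out), TRAV3N-3 (-0.41 with cells), TRAV13-1 (-0.054 with TMM, -0.030 to 0.13 with 1 mouse left out), and in regulatory T cells TRAJ37 (0.10 without cells of 2 TRA contigs, -0.21 to 0.24) and TRAJ31 (-0.21 to 0.64). With 1 mouse left out the difference in effective TRAV number ran from -0.70 to 3.92 in CD8 and from -9.75 to 1.35 in regulatory T cells. The cause was not tested. No V segment passed the filter between treatments in regulatory T cells under several settings, nor a J segment with own UMIs matching, so these gave no value. The other results were compared with the main one under each alternative setting. For comparisons and exact tests, 210 such answers were the same, 28 had a moved count of calls, 6 were weaker and 4 reversed. A count of calls that changed little was taken as the same. For single segments, 337 answers kept their direction and side of the threshold, 33 were weaker and 12 reversed. Each mouse and class held 130 to 433 clonotypes, so most segments were counted in few clonotypes, which limits what these tests can show.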
